A study of Mus musculus and Homo sapiens with 10 samples.

Results

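The genes of the cytosolic ribosomal proteins (RP genes) were followed in human H1 embryonic stem (ES) cells with and without a knockdown of the DNA methyltransferases (DNMTs), the enzymes that place methyl groups on cytosine. Members were all symbols of the human RefSeq table that begin with RPL or RPS and a digit, together with RPLP0, RPLP1, RPLP2 and RPSA. The kinase genes named RPS6K, the Y-linked copies and symbols of pseudogenes were left out, and the entry with the highest mean was kept for each symbol. This gave 88 symbols of 22060 in the table. They comprised 31 genes of the small subunit (40S), 46 of the large subunit (60S), 9 second gene copies such as RPL22L1, the readthrough transcript RPL17-C18orf32 and the antisense RNA RPL34-AS1, which encodes no ribosomal protein.

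A ribosome is built from ribosomal RNA and about one copy of each ribosomal protein, so cells make the RP messenger RNAs in similar and very large amounts. These mRNAs begin with a stretch of pyrimidines, the 5′ terminal oligopyrimidine (TOP) tract, through which the kinase complex mTORC1 and the RNA-binding protein LARP1 control their translation and stability. Some RP genes have a second copy elsewhere in the genome, often with a narrower pattern of tissues, and the human genome carries many processed RP pseudogenes close in sequence to their parent genes.

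The series holds 10 samples of mouse and human ES cells, of which the human ones are 1 RNA library per group, and its chromatin samples were not used here. H1 cells at passage 69 had been transduced with a lentiviral vector with an empty hairpin cassette (control) or with hairpins against the DNMTs (knockdown). H1 is a single established line, both groups carried a lentivirus, and cytoplasmic poly(A) RNA was sequenced. Values are RPKM, reads per kilobase of an entry scaled to the library total, so they compare levels between genes per length but do not show a change in RNA per cell. In such bulk RNA, fewer cells with a transcript and less of it in each cell cannot be told apart.

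The library totals were 100921087 reads in the control and 92478094 in the knockdown. DNMT1, the maintenance enzyme, stood at 24.5 and 6.95 RPKM, and DNMT3A and DNMT3B were also lower in the knockdown library. Of 10 ES cell markers, 10 were at 0.5 RPKM or more in both libraries, with a summed level of 2123 RPKM without and 1857 with the knockdown. Single markers went both ways. TDGF1 (418 and 144) and SOX2 (107 and 66.4) were lower, while L1TD1 (80.3 and 223), NANOG (17.3 and 32.6) and ZFP42 (38.3 and 56.8) were higher. Of 7 fibroblast markers 3 reached that level, and the sum over all 7 was 94.9 RPKM without and 154 with the knockdown. It came mostly from THY1 (35.2 and 109), COL1A2 (36.7 and 26.1) and COL1A1 (22.8 and 18.2). Of these 3, only THY1 was higher in the knockdown library, and both collagen genes were lower. LUM and DCN were at 0 in the control and at most 0.0201 in the knockdown. The 4 mesoderm markers lay at or below 0.241 RPKM and the 5 endoderm markers at or below 1.24 in both libraries. Endoderm markers summed to 0.221 RPKM without and 1.88 with the knockdown, with FOXA2 at 0.00816 and 1.24 and AFP at 0.190 and 0.596. Neuroectoderm markers summed to 4.80 and 1.68 RPKM over 4 genes, and trophoblast markers to 11.5 and 2.90 over 4 genes, mostly KRT7. The part of these markers in the RP values was not tested.

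With 1 library per group there is no replicate check, so no p-value is given. Every difference below is between these libraries and is the knockdown minus the control on log2(RPKM + 0.5). The 95% intervals are exact and cover counting error only. Genes with a mean of at least 0.5 RPKM were compared, 13043 in all. Of the 88 members, 86 passed this level. The exceptions were RPL3L, the copy of RPL3 known from heart and skeletal muscle (0.231 and 0.140 RPKM), and RPL34-AS1 (0.00788 and 0.0115).

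The RP genes of both subunits differed little between the libraries. The median of the 86 members was -0.09, beside 0.01 over all 13043 genes. Of the members, 72 lay within 0.32 of 0 in either direction, where 49.3% of all genes did. Past 1.5-fold, 3 members were higher (RPL10L, RPL22L1 and RPS26), where 13.0% of all genes were, and 1 was lower (RPS24), where 13.0% of all genes were as well. RPL10L, at 0 RPKM in the control, passed the filter only through the knockdown library, so its call was fixed in advance. Among genes with a mean of at least 100 RPKM, 78 of them members and 303 not, 11.3% were past 1.5-fold higher and 6.82% past 1.5-fold lower, with 1 member in each direction. In this range 54 members lay below 0, where 48.6% of all such genes did, and 69 lay within 0.32 of 0, where 60.6% did. The median of the 78 members was -0.09 and that of the 303 others 0.08.

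**Figure D1:**
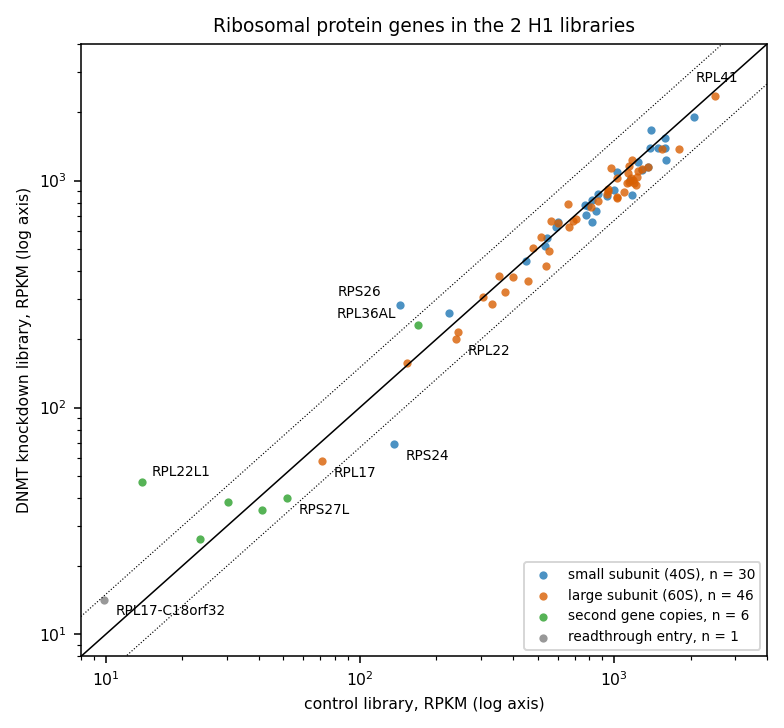
RPKM of 83 of the 85 members above the filter with reads in both libraries (the others are not reported here), in the control library (horizontal, log axis) and the DNMT knockdown library (vertical, log axis), with 1 point per gene. The solid line marks equal levels and the dotted lines 1.5-fold; RPL22L1 and RPS26 lie above the band and RPS24 below it, and RPL10L, at 0 RPKM in the control, cannot be drawn.

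Most of the shift was downward and small. Of the 77 genes of the 40S and 60S subunits, 54 lay below 0, where 48.9% of all genes did. The median was -0.05 over the 31 genes of the 40S subunit and -0.13 over the 46 of the 60S subunit. Summed over all 88 members, the level was 72872 RPKM without and 67437 with the knockdown. Set against the RPKM sum over all genes, this is a share of 25.2% in the control and 23.2% in the knockdown.

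Levels per length differed widely among genes whose proteins are nearly all used in equal numbers. In the control, the 77 subunit genes ran from 70.9 RPKM (RPL17, a protein at the exit of the nascent chain tunnel) to 2504 (RPL41, the smallest ribosomal protein), with a median of 936. In the knockdown they ran from 58.0 (RPL17) to 2368 (RPL41), with a median of 857. Each gene was read at 1 entry, which matters at the low end. The RPL17 entry held 28.1% of the 252 RPKM summed over its 8 entries in the control. The order of the genes was nearly the same in both libraries. Across these 77 genes, the log2 levels had a Pearson correlation of 0.973 and a Spearman correlation of 0.971, as a description of libraries that share gene lengths, sequences and counting. Next to RPL41, the members with high means included RPS18 (2069 and 1896 RPKM), RPL3 (1803 and 1376) and RPS2 (1589 and 1540). At the lower end stood RPL10L, RPL17-C18orf32, RPL26L1, RPL22L1 and RPL7L1, none of them a main subunit gene.

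Among the small subunit genes, RPS26 and RPS24 stood apart from the rest. RPS26 encodes a protein at the mRNA exit channel, and loss of 1 of its alleles is known to cause Diamond-Blackfan anaemia. It stood at 144 RPKM without and 282 with the knockdown, a ratio of 1.95 (95% interval 1.91 to 2.00). In both libraries it lay well below the 40S medians of 936 and 861 RPKM. Processed copies of RPS26 are close to it in sequence, and the sources used here do not say where reads that match several places were counted, so its level is uncertain. RPS12, near the beak of the 40S subunit, was the next highest by difference at 1403 and 1676 RPKM (ratio 1.19, interval 1.18 to 1.21), and apart from RPS26 and RPS24 all genes of this subunit lay within 1.5-fold.

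RPS24 was the only member past 1.5-fold lower, and this held for its leading entry, not for every entry. The entry NM_033022 stood at 136 RPKM without and 68.9 with the knockdown (ratio 0.507, interval 0.488 to 0.525). A second entry of the gene, NM_001026, went the other way, with 67.4 RPKM without and 99.8 with the knockdown (ratio 1.48, interval 1.42 to 1.54). RPS24 is known for a tissue-dependent choice of very short exons near the end of its coding region, and the RefSeq entries of the gene differ there. Of the summed RPKM of its 6 entries, NM_033022 made up 59.1% in the control and 37.1% in the knockdown, and NM_001026 29.3% and 53.7%. The 4 other entries summed to a small part, with none above 12.0 RPKM in either library. Over all 6 entries the sum was 230 RPKM without and 186 with the knockdown, so this sum differed less than the leading entry. The entries share exons, and how reads that match several entries were counted is not given. Neither the sum nor the shares thus measure the level of the gene or its choice of exons, which was not tested.

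**Figure D2:**
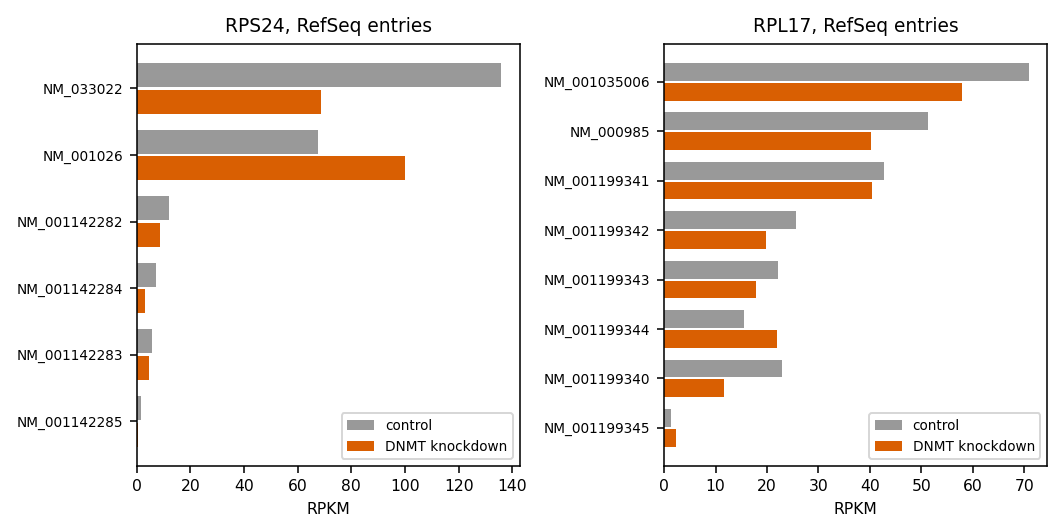
RPKM of each RefSeq entry (horizontal axis) of RPS24 and RPL17 in the control library (grey) and the DNMT knockdown library (orange), 1 library each and without error bars. For RPS24 the leading entry is NM_033022 in the control (136 RPKM) and NM_001026 in the knockdown (99.8 RPKM).

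RPL17 was the other gene whose entries lay on both sides of 0 by a wide margin. Its leading entry, NM_001035006, stood at 70.9 and 58.0 RPKM. The entry NM_001199340 stood at 23.0 RPKM without and 11.7 with the knockdown (ratio 0.511, interval 0.456 to 0.572), while NM_001199344 stood at 15.5 and 21.9 (ratio 1.41, interval 1.31 to 1.51). The readthrough RPL17-C18orf32, which joins RPL17 to its neighbour, stood at 9.90 and 14.2 RPKM (ratio 1.44, interval 1.36 to 1.52). Summed over its 8 entries, RPL17 was at 252 RPKM without and 212 with the knockdown. In all, 27 members had several entries above the filter. In the 25 members other than RPS24 and RPL17, the log2 differences of the entries of a gene lay within 0.038 of each other. Entries of one gene share exons, so they are not independent measurements.

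Among the large subunit genes none was past 1.5-fold. RPL3, which lines the peptidyl transferase centre, had the lowest difference of this subunit, with 1803 RPKM without and 1376 with the knockdown (ratio 0.763, interval 0.759 to 0.768). RPLP2 had the highest, with 660 and 787 RPKM (ratio 1.19, interval 1.18 to 1.21). It belongs to the P stalk, the flexible arm that binds the translation factors. The stalk genes lay on both sides of 0. RPLP1, the partner of RPLP2 in the stalk dimers, stood at 1177 and 1234 RPKM, whereas RPLP0, the base of the stalk, stood at 1539 and 1372 and RPL12, beside it, at 1359 and 1148. RPL5 and RPL11, which travel with the 5S ribosomal RNA and can bind the p53 regulator MDM2, stood at 1023 and 838 RPKM and at 1185 and 1002. Both were lower in the knockdown library, by ratios of 0.819 (interval 0.812 to 0.827) and 0.845 (interval 0.827 to 0.864). Of 8 proteins around the exit tunnel, 6 had a difference below 0 (75%), with a median of -0.17. This was near the 73.9% of all 46 genes of the 60S subunit, where 48.9% of all genes lay below 0.

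The members with the lowest differences after RPS24 came from both subunits and the second copies. RPS15A, a 40S protein, stood at 1174 RPKM without and 861 with the knockdown, RPS3A, also of the 40S subunit, at 1597 and 1236, and RPS27L at 51.5 and 39.8, beside RPL3 above. Their ratios were 0.733, 0.774 and 0.773. Of 19 RP genes mutated in Diamond-Blackfan anaemia, RPS26 alone lay above 0. The share below 0 was 94.7%, beside 70.1% of the 77 subunit genes and 48.9% of all genes. The median of the group was -0.17, with RPS24 taken at its leading entry. RPS27A, whose protein is made as a fusion to ubiquitin, stood at 866 and 874 RPKM (ratio 1.01, interval 1.00 to 1.02). FAU, another fusion gene of a ribosomal protein, falls outside the naming rule and stood at 311 and 308 RPKM.

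The remaining subunit genes filled the range between these in small steps. Above 0, RPL14 stood at 566 and 662 RPKM, RPL19, which lies near the tunnel exit, at 975 and 1141, and RPS23, a protein of the decoding centre, at 223 and 261. Below 0, RPL13 stood at 541 and 422 RPKM, RPL23 at 1218 and 951 and RPL15 at 457 and 360, with ratios of 0.780, 0.781 and 0.789. RPSA, the 40S protein also known as the laminin receptor precursor, stood at 1385 and 1392 RPKM, RPL21 at 1028 and 1029 and RPL37 at 306 and 307. The intervals of the ratio of these last 3 genes all included 1. By level, the 32 subunit genes with a mean of at least 1000 RPKM had a median difference of -0.18, and the lower bands, of 29 and 16 genes in falling order of level, medians of -0.07 and -0.13. The difference thus followed no order of level across these 3 bands.

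**Figure D3:**
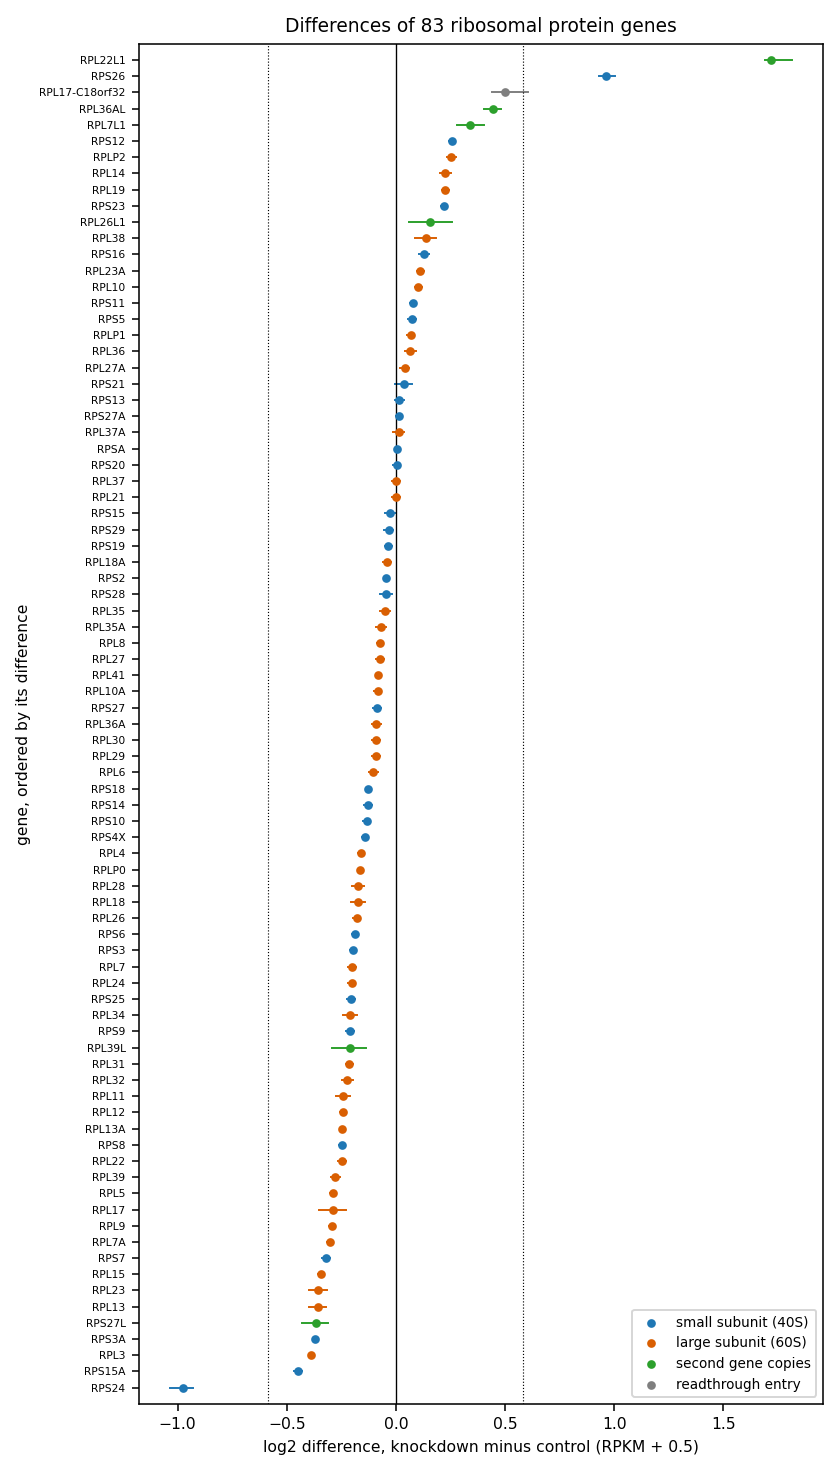
The log2 difference of RPKM + 0.5, knockdown minus control (horizontal axis), of 83 of the 85 members above the filter with reads in both libraries (the others are not reported here), ordered by their difference and coloured by class. Bars are 95% counting intervals of the RPKM ratio, taken without the pseudocount, and the dotted lines mark 1.5-fold; most genes lie between -0.39 (RPL3) and 0.26 (RPS12).

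Of the second gene copies, 8 passed the filter, with a median of 0.25. Past 1.5-fold, 2 of the 8 were higher and 0 lower, where 13.0% of all genes were in each direction. RPL10L was among these 2, and its call was fixed by the filter, as it passed only through the knockdown library. The median absolute difference of the 8 was 0.35, beside 0.33 over all genes. As a group the second copies thus lay near the background, unlike the 40S and 60S genes with 0.16. RPL22L1 had the highest ratio among those with reads in both libraries. It encodes a close relative of RPL22, a 60S protein that is not essential for the ribosome, and RPL22 protein is known to bind RPL22L1 RNA and to lower it. RPL22L1 stood at 13.9 RPKM without and 46.9 with the knockdown, a ratio of 3.37 (interval 3.23 to 3.52). RPL22 stood at 238 and 200 RPKM, a ratio of 0.842 (interval 0.831 to 0.853). RPL22L1 thus made up 5.52% of the pair in the control (interval 5.32 to 5.72%) and 19.0% in the knockdown (interval 18.6 to 19.3%). The summed level of the pair was 252 RPKM without and 247 with the knockdown.

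RPL10L was the other second copy past 1.5-fold. It is an intronless copy of the X-linked RPL10 and is known from the male germline. No read was counted for RPL10L in the control, which allows up to 3 reads or 0.0355 RPKM. The knockdown library held 339 reads, or 4.37 RPKM, which is 123-fold this limit, without counting error on the 339 reads. RPL10L passed the filter only through this library, so that it was higher was fixed in advance. RPL10 itself stood at 353 and 379 RPKM, so RPL10L reached 1.14% of the pair in the knockdown (interval 1.02 to 1.27%).

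RPL36AL, the autosomal copy of the X-linked RPL36A, was among the more abundant second copies. It stood at 169 RPKM without and 230 with the knockdown (ratio 1.36, interval 1.32 to 1.40), while RPL36A stood at 400 and 376. Its share of the pair was 29.7% in the control (interval 29.2 to 30.2%) and 38.0% in the knockdown (interval 37.5 to 38.5%). RPL7L1, a relative of RPL7, stood at 30.2 and 38.3 RPKM beside 1293 and 1125 for RPL7, a share of 2.28 and 3.29%. RPL26L1, nearly identical to RPL26, stood at 23.5 and 26.2 RPKM beside 1163 and 1027, a share of 1.98 and 2.49%.

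In the remaining pairs the second copy did not gain in this way. RPL39L, a copy of the tunnel protein RPL39 known from testis, stood at 41.1 RPKM without and 35.4 with the knockdown, beside 1030 and 850 for RPL39. Its share of 3.84% (interval 3.70 to 3.98%) and 4.00% (interval 3.84 to 4.17%) differed by less than the counting intervals. RPS27L, a copy of RPS27 known as a target of p53, held 3.36% of its pair in the control and 2.77% in the knockdown, beside 1483 and 1397 RPKM for RPS27. RPL3L held 0.0128 and 0.0102% of its pair with RPL3.

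**Figure D4:**
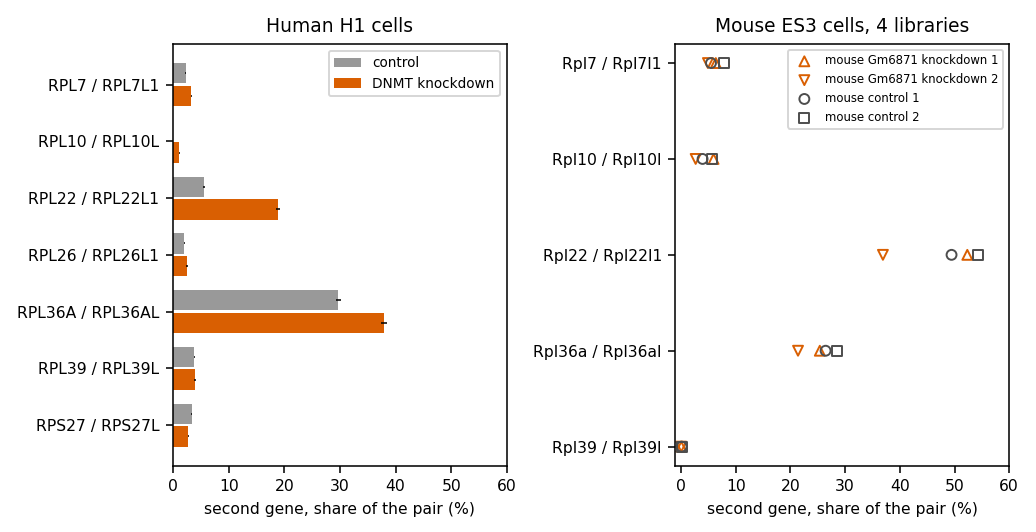
Share of the second gene in the RPKM sum of its pair (horizontal axis, percent) in the human libraries (left, bars with 95% counting intervals) and in the 4 mouse ES3 libraries (right, 1 symbol per library). RPL22L1 goes from 5.52 to 19.0% in human cells, while Rpl22l1 lies between 36.9 and 54.3% in all mouse libraries.

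The genes that serve the ribosome without being part of it differed from the RP genes themselves. Ribosome biogenesis factors, which make, modify and assemble the particle in the nucleolus, were higher in the knockdown library almost throughout. Of 38 such genes, 31 were past 1.5-fold higher and 0 past 1.5-fold lower, beside 13.0% of all genes in each direction, and their median was 0.81. RRS1, an assembly factor of the 60S subunit, stood at 8.85 and 25.5 RPKM (1.48 on the log2 scale) and MRTO4, which holds the place of the P stalk during assembly, at 9.65 and 24.8 (1.32). At the lower end were FBL, the methyltransferase of ribosomal RNA, at 181 and 189 RPKM (0.06), and NOB1, the nuclease that matures the 18S RNA, at 34.0 and 30.3 (-0.17).

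The carriers and regulators of RP proteins had medians between those of these groups. Of 11 chaperones and importers 3 were past 1.5-fold higher and 0 lower, where 13.0% of all genes were in each direction, with a median of 0.31. GRWD1, the chaperone of RPL3, stood at 9.03 and 20.4 RPKM and RRP7A, a processing factor of the 40S subunit, at 3.17 and 6.88, while the importers IPO5 and IPO7 stood at 65.5 and 68.8 and at 55.7 and 41.0. Of 17 genes of mTORC1 and LARP control 3 were past 1.5-fold higher (17.6%, beside 13.0% of all genes) and 0 lower, with a median of 0.23. MYC, a transcription factor known to drive ribosome genes, stood at 11.6 and 28.2 RPKM and AKT1S1 at 7.93 and 15.7. TSC1 stood at 4.93 and 3.59 and the kinase RPS6KB1 at 4.58 and 3.70. The activity of mTORC1 was not tested.

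Other TOP mRNAs were lower, like the RP genes. Of 19 such mRNAs, FAU among them, 15 lay below 0 (48.9% of all genes) and 1 was past 1.5-fold lower, with a median of -0.27. The elongation factors EEF2 and EEF1A1 stood at 872 and 511 RPKM (-0.77) and at 4405 and 2985 (-0.56). EEF1B2, a subunit of the exchange factor of EEF1A1, stood at 313 and 387 (0.31). The 76 mitochondrial RP genes, whose proteins build a separate ribosome, had a median of 0.22, with 10 past 1.5-fold higher (13.2%, near the 13.0% of all genes) and 0 lower. MRPL1 differed by 1.18 on the log2 scale, from 7.69 RPKM in the control, and MRPS12 stood at 13.2 and 27.1, while MRPL23 stood at 22.8 and 17.3 and MRPL37 at 37.7 and 31.2. Among genes that are no RP members, those with a worked-out entry length under 1000 bp had a median of 0.10 and those of 4000 bp or more -0.05. The part of length in these differences was not tested.

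**Figure D5:**
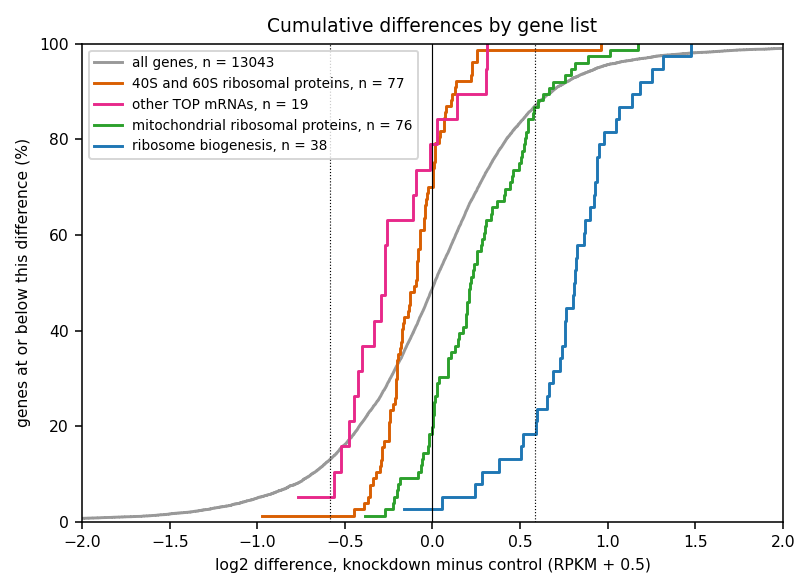
Cumulative share of genes (vertical axis, percent) at or below each log2 difference, knockdown minus control (horizontal axis), for all genes and 4 lists; dotted lines mark 1.5-fold. The 40S and 60S genes form a steep curve around their median of -0.09, and the ribosome biogenesis genes lie to its right with a median of 0.81.

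Mouse ES3 cells (strain C57BL/6) offered a view of how far libraries of one group stand apart. In 2 control libraries (empty hairpin vector) and 2 libraries with a hairpin against the zinc finger gene Gm6871, all 4 days after transduction, 83 of the 88 symbols had a mouse gene of the same name. Of these, 80 passed the same filter. The median absolute log2 difference between replicate 2 and replicate 1 was 0.17 in the controls and 0.09 in the Gm6871 knockdown over these 80 genes. In the human comparison it was 0.18 over the 86 members. Between replicates, 3 of the 80 mouse RP genes were past 1.5-fold in each group, where 19.5% of all mouse genes were in the controls and 15.7% in the Gm6871 knockdown. The median absolute difference of the human members was thus close to that between the mouse control libraries and larger than that between the Gm6871 knockdown libraries. The 2 gene sets stood at unlike levels. Of the 86 human members, 78 had a mean of at least 100 RPKM. Some mouse genes stood far lower, such as Rpl31 (2.59 and 4.14 RPKM in the controls) and Rpsa (11.6 and 10.3), and others high, such as Rpl4 (3336 and 2637). The part of low entries in the mouse spread was not tested. A joint shift was also seen between the mouse controls, with 62 of the 80 genes lower in control replicate 2 and a median of -0.13, beside -0.04 over all mouse genes. The mouse and human tables were normalized separately, so these values describe spread and were not tested against each other.

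The same view was taken of the human genes that stood apart. Rpl22l1 had 105 and 89.6 RPKM in the mouse controls and 101 and 101 in the Gm6871 knockdown, and Rpl22 had 107 and 75.3 and, in the latter, 91.7 and 173. The share of Rpl22l1 in the pair ran from 36.9 to 54.3% over the 4 libraries, a wide spread with overlapping groups. Rps26 had 1455 and 1248 RPKM in control libraries and 1394 and 1484 in the Gm6871 knockdown. The share of Rpl36al in its pair was 26.4 and 28.5% in the control libraries, against 25.4 and 21.4% in the Gm6871 knockdown. Rpl10l was present in all 4 mouse libraries, at 9.38 and 12.8 RPKM in the control ones, against 14.7 and 6.29 in the Gm6871 knockdown. Rps27, in contrast, stood at no more than 6.62 RPKM in any mouse library, while Rps27l stood at 408 to 605. The part of reads shared between such near-identical copies in these levels was not tested.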

How the data were processed

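The authors deposited RPKM values for RefSeq entries, 1 column per library, per the file headers. The submitters' processing notes list Bowtie 0.12.5 and, as builds, hg19 and mm9, without their roles. Annotation release, strand and the treatment of reads that match several places: not given in the sources used here. Samples were grouped by title. Members and gene lists were chosen with earlier results of these data known. No human coordinates or sequences were used here.

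Library totals were worked out as the whole number that turned 100% of the RPKM values of 9840 human L1 loci into whole reads within 0.01. The smallest entry length up to 120000 bp that gave whole reads in both libraries was then taken, and 1 was found for 100% of 13043 genes. It can be a fraction of the true length, in which case reads are understated and intervals too wide. These steps were tested on simulated data. Ratios of reads carry exact 95% binomial intervals. A pseudocount of 0.5 RPKM understates differences of low genes. A call means 1.5-fold, and no test was made.

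Named genes were the 5 highest and 5 lowest members by mean and by difference, all paralogue pairs, the P stalk, RPL5, RPL11, RPS27A, FAU and 2 at each end of every list, less some not reported here; DNMT and marker genes serve as checks, and other entries and genes were named after their values were seen. Mouse entries were named from RefSeq of GRCm38.p6, where 27884 matched. Mouse replicates are not stated to be separate cultures. Alternatives covered the choice of entry, pseudocount, filter, scaling and fold. Python 3.11.15, numpy, pandas and scipy 1.17.1 were used.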

Additional observations from a re-analysis of the deposited data

How the results depend on the processing

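Each value comes from 1 library per group, so neither a left-out replicate nor a paired fit could be run for the human comparison. Taking the mean or the sum over the entries of a symbol gave 0 members lower past 1.5-fold in place of 1, since RPS24 was then at -0.30. These settings turned the change in the RP share of the RPKM sum from -1.93 percentage points into -1.66 and -1.82, and as a share of whole reads it was -0.69. The mean over entries gave RPL10L a share of its pair that was 2.22 points higher in the knockdown, in place of 1.14. With all other genes as the scale, the RP median was -0.13 and that of ribosome biogenesis genes 0.77. That median was 0.84 with a pseudocount of 0.1 and 0.78 with 1. With a threshold of 0.32 on the log2 scale, 6 members were higher and 8 lower, where 49.3% of all genes lay within it. At 2-fold, 2 members (RPL10L and RPL22L1) were higher and 0 lower, with 7 biogenesis genes higher. RPL10L passed the filter only through the knockdown library, so its call was fixed in advance here as well. The share of all genes past 2-fold was not worked out, so these 2-fold counts stand without a background. Over all of these settings RPL10L ran from 2.43 to 5.48, RPL22L1 from 1.68 to 1.75 and RPS26 from 0.93 to 0.97. Of 247 values of 31 named genes under these alternatives, 3 changed sign, each for RPS27A and by at most 0.040.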

Other observations

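The table also listed 23 RP pseudogene symbols, of which 11 had a mean of at least 0.5 RPKM and 6 of at least 10 RPKM. RPL13AP5 stood at 1378 RPKM without and 1169 with the knockdown, above its parent RPL13A. RPSAP15 stood at 757 and 763 RPKM, RPL21P75 at 509 and 506, RPL13AP20 at 289 and 241, RPL23P8 at 94.7 and 72.5 and RPS10P7 at 44.5 and 43.3. Of the 168 entries filed under the symbols of the members, 36 were non-coding records of the NR_ class, and 26 of these were at 0 in both libraries.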
